A study of Mus musculus with 10 samples.

Results

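One of 5 preparations of mouse bone marrow mesenchymal stromal cells, MSC IV, was compared with MSC II, MSC III and MSC V. Samples were chosen by their titles, and the contrast set the mean of the 2 MSC IV arrays against the unweighted mean of the 3 other preparation means. It used 8 of the 10 arrays of the series (2 of MSC IV and 6 of the others). MSC I was left out of the contrast, and its levels are given only for orientation. All preparations were bone marrow stromal cells of female C57BL/6J mice aged 6 to 8 weeks, carried to passage 16 to 17 in murine MesenCult medium with 20% of its mesenchymal supplement, penicillin, streptomycin and kanamycin. No genotype, treatment or control differed between them in the labels, and each preparation had 2 replicates. Total RNA was labelled with biotin and hybridised to an Affymetrix array, and all levels below are log2 values. The contrast was chosen because earlier results of the same arrays set MSC IV apart, so its differences, errors and counts are given as a description of these arrays and support no further statement. MSC IV is 1 preparation, and the labels do not say whether its replicates were separate cultures, so the errors measure the spread between arrays and not between preparations.

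Stromal cells of the marrow are adherent, fibroblast-like cells that can be driven towards bone, fat or cartilage, and that supply blood stem cells with adhesion molecules, chemokines and growth factors. On the way to the osteoblast, the bone-forming cell, the transcription factors Runx2 and Sp7 switch on genes for the collagenous bone matrix and for its mineralisation. Mineral forms when phosphatases on the cell surface and inside matrix vesicles raise free phosphate and remove pyrophosphate, which otherwise blocks crystal growth. These cultures were fed an expansion medium, and no mineralising treatment is named in the labels.

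Several general markers of stromal cells were present in MSC IV, while Pdgfra, Vcam1 and Cxcl12 were lower than in the others, as given below. Prrx1, a transcription factor of limb and skeletal mesenchyme, was at 12.11 and 11.95 on the MSC IV arrays and at 12.19 to 12.62 on the 6 others. The growth factor receptor Pdgfrb was at 11.46 and 10.83 against 11.26 to 12.23, the adhesion receptor Cd44 at 9.63 and 9.57 against 9.37 to 10.17, and the collagen chain Col1a1 at 11.90 and 12.14 against 11.30 to 12.20. Thy1, a surface protein often used to define stromal cells, was at 5.63 and 5.62 in MSC IV, under the median of the whole table (6.55), and at 5.45 to 7.69 on the others. The leukocyte gene Ptprc (5.22 and 5.18 in MSC IV), the endothelial gene Pecam1 (4.84 and 4.94), the epithelial gene Epcam (5.18 and 5.28), the osteoclast gene Calcr (4.90 and 4.88) and the glial gene Sox10 (5.17 and 5.20) all lay under the table median on every array of MSC II to V. Of 22 macrophage and leukocyte genes 2 passed the low-value filter, of 18 lymphoid and erythroid genes 2, of 16 endothelial genes 1, of 15 epithelial genes 1, of 16 neural and glial genes 0, of 18 skeletal muscle genes 2 and of 13 osteoclast genes 5. The osteoclast genes Ctsk (-0.08), Nfatc1 (0.48), Itgb3 (-0.62), Clcn7 (0.32) and Tcirg1 (0.38) were not called, and Ctsk was at 8.24 and 8.17 in MSC IV against 6.86 to 10.56. The keratin gene Krt19 was at 5.60 and 5.57 against 5.79 to 10.02, lower with a difference of -2.18 but not called without either MSC IV replicate (-2.19 and -2.17). Cd34, a surface protein of blood progenitors and other cells, was at 7.599 and 6.76 against 9.62 to 11.62, lower with a difference of -3.14 but not called without MSC IV replicate 2 (-2.72). The monocyte gene Cd14 (-1.07) was lower and not called without MSC II replicate 2 (-0.99), either MSC IV replicate (-1.08 and -1.06) or MSC V replicate 1 (-0.99). RMA values have no true zero, so a level near 5 is read here as low and not as absence.

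In all, 10725 genes were tested, those with at least 2 of the 8 arrays above the table median. A call needed a Benjamini-Hochberg adjusted p under 0.05 in limma together with a 2-fold change or more (1 log2). By this rule 288 genes (2.69% of those tested) were higher in MSC IV and 701 (6.54%) were lower. With each array centred on its own median, which raised the median difference by 0.14, the counts were 407 and 577, and the share of called genes that were higher went from 29.1% to 41.4%. No called gene changed sign. Of the called genes, 45 were higher and 52 lower by at least 3 log2. Both MSC IV arrays lay above all 6 others for 1566 genes (14.6%) and below all 6 for 1632 (15.2%), and 256 of the higher and 600 of the lower calls were among them. Without MSC IV replicate 2 the counts were 138 higher and 343 lower, and 104 and 291 genes were called whichever single array was left out. With each preparation taken as 1 value, so that the spread was that between preparations, 40 genes were higher and 42 lower, 39 and 42 of them called in the main comparison too. That fit left few degrees of freedom, and 1325 genes had an unadjusted p under 0.05 in it.

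The single comparisons share the MSC IV arrays, and their counts are given side by side for that reason. Against MSC II, 348 genes (3.24%) were higher and 644 (6%) lower in MSC IV. Against MSC III the counts were 269 (2.51%) and 606 (5.65%), and against MSC V 375 (3.5%) and 813 (7.58%). Over the tested genes the MSC IV replicates correlated at r = 0.978, and the replicates of the other preparations at 0.969 to 0.980. Arrays of MSC II, III and V correlated with each other at 0.899 to 0.951. MSC IV correlated with MSC II at 0.843 to 0.911, with MSC III at 0.864 to 0.920, with MSC V at 0.848 to 0.906, and with MSC I at 0.774 to 0.820.

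Some calls have a bound built in. A group of 70 genes passed the filter through MSC IV alone, so they could hardly fail to differ, and 52 of them were called higher. In the other direction both MSC IV arrays lay at or under the table median for 546 genes, 228 of which were called lower. In both cases the lower side lies near the floor of the array, so the size of the difference can be understated. Where a gene had further probe sets above the filter, these mostly pointed the same way. For the higher genes, 28 of 28 further probe sets of 17 genes had the same sign, and for the lower genes 39 of 40 probe sets of 21 genes did. The exception was a probe set of Kcnma1. Unless a sentence says otherwise, each called gene named below kept its call with any of the 8 arrays left out, or, where it passed the filter through MSC IV alone, could not be tested without an MSC IV array. The genes of the second kind named in the text are Panx3, Dkk1, Eng, Hey1, Dlx3, Ihh, Rnf43, Wnt4, Bmp8a, Sox6, Hoxd8, Car3, Ncf1, Galnt3 and Adamts18.

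Genes of bone mineralisation held the largest share of higher genes among the lists with at least 10 tested members. Of 20 tested genes of bone matrix and mineralisation, 9 were higher and 4 lower in MSC IV, against 2.69% and 6.54% of all genes, and the list's median difference was 0.98 against 0.01 over all genes. Of the 9, Panx3 passed the filter through MSC IV alone, so its call was nearly built in, and it could not be tested without an MSC IV array. Both counts fell without either MSC IV replicate. The list's median difference was 1.26 without MSC IV replicate 1 and 0.31 without MSC IV replicate 2. With each preparation as 1 value the counts by limma were 3 and 0, with 10 and 2 at an unadjusted p under 0.05. The largest fitted difference of the comparison belonged to Panx3, a channel-forming protein of osteoblasts and cartilage cells. It was at 11.58 and 12.13 in MSC IV and at 4.78 to 5.65 (median 5.31) on the 6 other arrays, a difference of 6.58 ± 0.22 (SE). The 6 other arrays were under the table median, so this size rests on levels near the floor. The groups did not come near each other, and MSC I was as low as the others (5.36 and 4.69). Slc13a5, a sodium-coupled transporter that brings citrate into the cell, was at 13.57 and 12.999 against 6.49 to 8.52 (median 7.29), a difference of 5.89 ± 0.37. Its highest values outside MSC IV were in MSC III (8.52 and 8.25).

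The enzymes that supply phosphate for mineral followed the same pattern. Phospho1, which frees phosphate inside matrix vesicles, was at 11.83 and 12.03 in MSC IV and at 6.99 to 8.48 (median 7.45) elsewhere, a difference of 4.37 ± 0.40. Smpd3, a sphingomyelinase needed for normal mineralisation and a source of substrate in the same vesicles, was at 10.65 and 11.19 against 6.92 to 8.31 (median 7.17, difference 3.53 ± 0.27). Both MSC IV arrays of these genes lay above all 6 others by more than 2 log2. Alpl, the alkaline phosphatase that splits pyrophosphate, was at 13.82 and 12.25 in MSC IV, but its level varied widely among the other preparations, from 6.53 to 11.79. It differed by 4.78 from MSC II and 5.31 from MSC V but by 1.91 from MSC III, and MSC I was at 10.54 and 9.45. Its mean difference was 3.997 ± 0.78, and it was no longer called without MSC IV replicate 1 (3.21). Sgms2, a sphingomyelin synthase found in bone, was higher by 1.79 ± 0.35 and was not called without MSC IV replicate 2 (1.14).

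Matrix and membrane proteins of the osteoblast were higher as well. Ibsp, bone sialoprotein, which binds mineral and cells in the bone matrix, reached 14.45 and 12.64 in MSC IV against 8.04 to 11.17 (median 10.07). Its difference of 3.79 ± 0.95 came with a large error, its replicates lay more than 1 log2 apart in MSC II, MSC IV and MSC V, and it was not called without MSC III replicate 2 (3.72) or either MSC IV replicate (2.89 and 4.70). In MSC I it was at 6.27 and 3.97. Ifitm5, a small membrane protein largely restricted to osteoblasts, was at 10.02 and 11.85 against 6.01 to 6.64 (median 6.37, difference 4.58 ± 0.44), and outside MSC IV it stayed near or under the table median. Pth1r, the receptor through which parathyroid hormone acts on osteoblasts, was at 10.25 and 10.62 against 5.20 to 7.58 (median 6.53, difference 3.92 ± 0.40). Ostn, osteocrin, a peptide secreted by young osteoblasts, was at 10.93 and 11.99 against 4.43 to 7.34 (median 5.68, difference 5.48 ± 0.70).

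**Figure D1:**
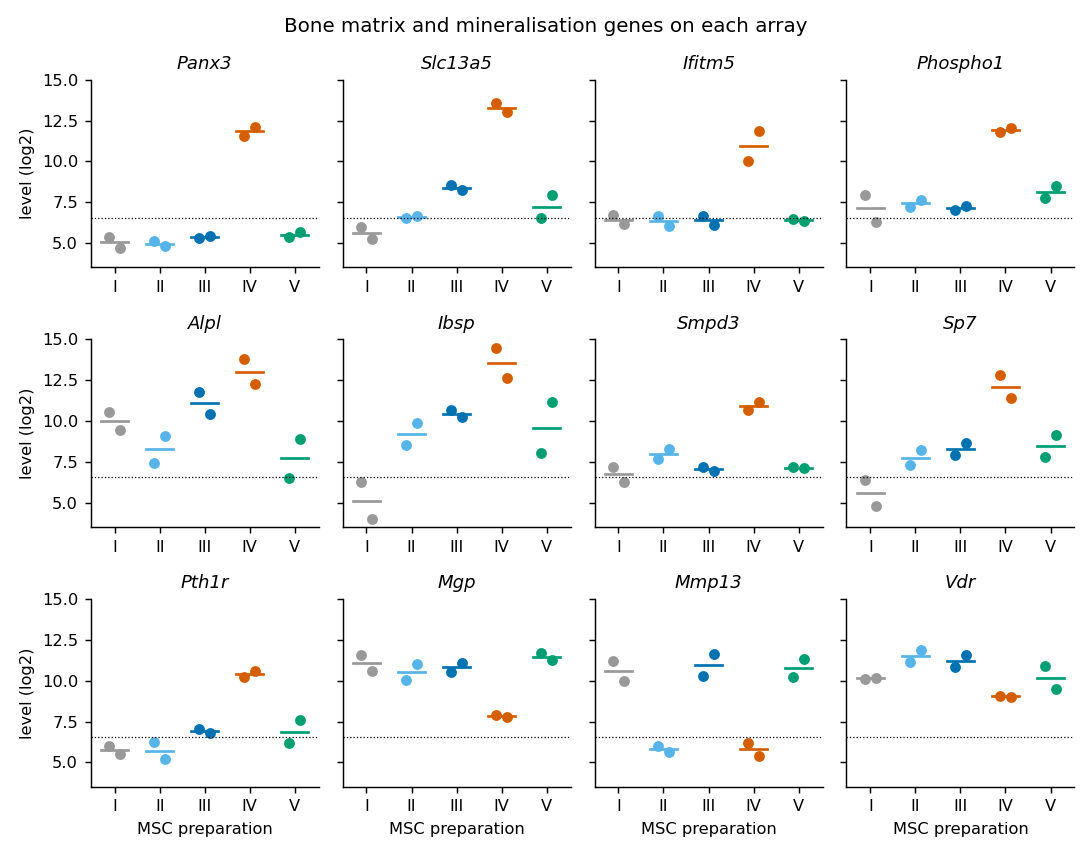
Log2 level of 12 bone genes on each of the 10 arrays, by preparation; points are single arrays, bars the mean of 2, and the dotted line the table median (6.55). In the first 9 panels both MSC IV points are above all points of MSC II, III and V, while for Mgp and Vdr they are below them, and for Mmp13 MSC IV and MSC II overlap.

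The same list held 4 lower genes. Mgp, matrix Gla protein, which prevents calcification of soft tissue, was at 7.92 and 7.76 in MSC IV and at 10.03 to 11.68 (median 11.06) elsewhere, a difference of -3.11 ± 0.33. Mmp13, a collagenase of bone and cartilage turnover, was lower (difference -3.39 ± 0.49) on average, yet MSC IV (6.21 and 5.38) was as low as MSC II (6.005 and 5.60), and the difference lay in MSC III (10.30 and 11.63) and MSC V (10.22 and 11.35). The vitamin D receptor Vdr was at 9.08 and 9.005 against 9.47 to 11.89 (median 11.01, difference -1.93 ± 0.38) and lost its call without either MSC IV replicate (-1.97 and -1.89). Enpp3, a nucleotide pyrophosphatase, differed by -1.77 on average with -4.07 from MSC II but -0.82 from MSC III and -0.41 from MSC V, and was not called without MSC IV replicate 2 (-1.64). The phosphate transporters Slc20a1 (-0.24) and Slc20a2 (-0.505) and the late osteoblast and osteocyte genes Dmp1 (0.65) and Phex (1.31) were not called. Runx2, Spp1 and Bglap had no probe set with a single symbol and were not analysed here.

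The promoter windows of Ibsp and Phospho1 are shown as examples of higher mineralisation genes whose starts could be matched. The call of Ibsp depended on single arrays, as given above. RefSeq windows (GRCm38.p6) run from 250 bases before to 50 after the start, on the gene's strand, and capitals mark CCAAT and TATAAA in either orientation.
Ibsp (chr5:104299037-104299336, plus strand): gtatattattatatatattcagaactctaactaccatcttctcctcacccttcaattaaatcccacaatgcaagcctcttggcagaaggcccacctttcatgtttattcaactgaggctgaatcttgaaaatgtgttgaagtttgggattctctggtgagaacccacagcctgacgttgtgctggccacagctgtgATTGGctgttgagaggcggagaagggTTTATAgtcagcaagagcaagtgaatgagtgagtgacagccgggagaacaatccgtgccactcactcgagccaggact
Phospho1 (chr11:95824250-95824549, plus strand): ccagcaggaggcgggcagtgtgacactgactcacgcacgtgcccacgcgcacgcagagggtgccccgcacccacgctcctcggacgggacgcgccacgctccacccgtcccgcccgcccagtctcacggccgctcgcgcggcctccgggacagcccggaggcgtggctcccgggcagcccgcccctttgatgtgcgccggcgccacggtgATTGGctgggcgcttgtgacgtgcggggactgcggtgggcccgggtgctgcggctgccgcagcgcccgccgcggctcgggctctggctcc
In Ibsp the reverse complement of CCAAT begins at -54 and that of TATAAA at -28, counted from the start without a 0. In Phospho1 the reverse complement of CCAAT begins at -40. CCAAT was found in 37.8% and TATAAA in 6.95% of all 11020 windows of 8604 tested genes, searching both strands. TATAAA was found in 11.4% of the windows of higher genes and in 9.77% of those of lower genes. TGTGGT, the core letters bound by RUNX factors, was found in 13.8% of the windows of higher genes, 14.9% of those of lower genes and 12.2% of all windows. In the mineralisation list TGTGGT was found in 10.5% of the 19 windows of called genes and in 37.5% of the 8 windows of those not called. A match describes the letters only.

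Transcription factors of the osteoblast lineage differed in both directions. Of 14 tested, 5 were higher (35.7%, against 2.69% of all genes) and 4 lower (28.6%, against 6.54%), with a median difference of 0.47. Of the 5, Hey1 and Dlx3 passed the filter through MSC IV alone, so their calls were nearly built in. Without either MSC IV array 12 of the 14 could be tested and 2 were higher. With the filter on the mean of 8 arrays 3 of 11 were higher. The 4 became 1 without MSC IV replicate 1 and 2 without MSC IV replicate 2 or MSC V replicate 1. Sp7, osterix, without which no bone forms, was at 12.80 and 11.38 in MSC IV and at 7.29 to 9.13 (median 8.05) on the others (difference 3.94 ± 0.58), and was low in MSC I (6.39 and 4.82). Mef2c, a factor of hypertrophic cartilage and osteocytes, was at 12.35 and 11.93 against 8.39 to 11.02 (median 9.70, difference 2.48 ± 0.30). Hey1, a target of Notch and BMP signalling, was at 8.62 and 8.84 against 5.12 to 5.49 (median 5.40, difference 3.36 ± 0.11). The homeobox gene Dlx3 was higher by 1.93 ± 0.36. Dlx5 was at 11.78 and 11.06 against 8.80 to 10.80 (median 9.99, difference 1.54 ± 0.42) and lost its call without MSC II replicate 1 (1.37), either MSC III replicate (1.57 and 1.504), either MSC IV replicate (1.18 and 1.89) or MSC V replicate 1 (1.36).

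Among the lower factors Foxc2, a forkhead factor of mesenchyme, was at 6.49 and 5.93 against 8.62 to 9.63 (median 9.16, difference -2.87 ± 0.17), and all 6 other arrays were above both MSC IV arrays. Twist2, which holds back osteoblast maturation, was lower (difference -2.09 ± 0.48), overlapped with MSC III and was not called without either MSC IV replicate (-2.32 and -1.85). Msx2 (-1.07) was not called without either MSC IV replicate (-1.03 and -1.10) or MSC V replicate 1 (-0.94), and Lef1 (-1.13) was not called without MSC IV replicate 1 (-0.83). Twist1 (0.22) and Cbfb (0.58), the partner of the RUNX factors, were not called.

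Osteoblasts also control osteoclasts, the bone-resorbing cells, through secreted and surface proteins. Of 10 tested genes of this kind 1 was higher (10%, against 2.69% of all genes) and 5 lower (50%, against 6.54%), 3 without MSC IV replicate 2. Wnt5a was the higher one (10.42 and 10.04 against 8.08 to 8.79, median 8.31, difference 1.86 ± 0.22). Il34, a ligand of the macrophage growth factor receptor, was at 5.86 and 5.53 against 6.94 to 8.08 (median 7.82, difference -1.99 ± 0.19), and Sema3e at 5.91 and 5.69 against 6.52 to 9.03 (median 8.23, difference -2.27 ± 0.26). Tnfsf11, which encodes RANKL, the main signal for osteoclast formation, differed by -0.30, and its decoy receptor Tnfrsf11b by -0.81, and neither was called. Of 7 tested cartilage genes, Col11a1 (9.40 and 10.02 against 6.26 to 7.92, median 7.31, difference 2.53 ± 0.26), Ihh (2.16 ± 0.12) and Sox6 (1.11 ± 0.14) were higher. The higher share was 42.9% and the lower share 14.3%, against 2.69% and 6.54% of all genes. Ihh and Sox6 passed the filter through MSC IV alone. Without either MSC IV array 5 of the 7 could be tested, and 1 was higher. With the filter on the mean of 8 arrays 1 of 3 was higher. Sox9, the main cartilage factor, was lower (-1.44 ± 0.22) but not called without MSC IV replicate 2 (-1.15). Sox5 (-1.21) and Col2a1 (-0.53) were not called. Without MSC II replicate 1, 2 of the 7 genes were lower. The aggrecan gene Acan stayed under the table median on every array.

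Signalling genes that act on osteoblasts differed in both directions. In the Wnt pathway, which promotes bone formation, 8 of 38 tested genes were higher and 8 lower. These were 21.1% each, against 2.69% and 6.54% of all genes. Of the 8 higher genes 3 (Dkk1, Rnf43 and Wnt4) passed the filter through MSC IV alone and could not be tested without an MSC IV array. The higher count was 2 without MSC IV replicate 1 and 4 without replicate 2, of 35 tested in each case. The lower count was 5 without MSC IV replicate 2. The largest difference was in Dkk1, a secreted inhibitor that blocks the Wnt co-receptors, at 9.54 and 11.75 in MSC IV against 5.08 to 5.77 (median 5.36, difference 5.23 ± 0.53). Its MSC IV arrays lay over 2 log2 apart, but both were far above the rest. Nkd1, an inhibitor inside the cell, was higher (1.19) but not called without MSC IV replicate 1 (0.76). The secreted inhibitor Sfrp1 was lower, at 5.73 and 5.27 against 7.04 to 11.37 (median 10.40, difference -4.17 ± 0.32), nearest to MSC II (7.04 and 7.66). Dkk3, a relative of Dkk1, was lower, at 8.73 and 8.07 against 11.11 to 12.04 (median 11.79, difference -3.28 ± 0.26).

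Among Wnt ligands Wnt5a and Wnt4 (1.31 ± 0.24) were higher, and Wnt10b (1.498 ± 0.33) was higher but not called without either MSC IV replicate (1.49 and 1.502). Rspo2, a secreted amplifier of Wnt signals, was at 8.52 and 6.81 against 9.10 to 12.08 (median 10.74, difference -2.90 ± 0.44), and its receptor Lgr5, a marker of stem cells in several tissues, was at 5.53 and 5.47 against 8.17 to 9.80 (median 9.002, difference -3.38 ± 0.35). Rnf43, which removes Wnt receptors from the cell surface, was higher (2.46 ± 0.10), as was Lrp4 (10.92 and 10.16 against 7.34 to 9.14, median 8.53, difference 2.25 ± 0.23), a receptor that also binds sclerostin. Ctnnb1, the gene of beta-catenin, differed by 0.22, Lrp5 by 0.39 and Lrp6 by -0.30, none of them called.

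In the BMP pathway 3 of 26 genes were higher and 3 lower (11.5% each, against 2.69% and 6.54% of all genes). The higher count was 1 of 25 tested genes without MSC IV replicate 1. The higher gene Bmp8a passed the filter through MSC IV alone and could not be tested there. The ligand gene Bmp8a was at 7.85 and 9.40 against 5.04 to 5.67 (median 5.45, difference 3.23 ± 0.38), and the signal transducer Smad9 at 9.80 and 9.37 against 7.22 to 8.598 (median 8.09, difference 1.55 ± 0.21). The secreted binding proteins Fstl1 (-1.20 ± 0.16) and Nbl1 (-1.22 ± 0.16) were lower. Bmp2 (0.39), Bmp4 (0.46) and the target Id1 (0.94) were not called. In the hedgehog and Notch list 3 of 14 genes were higher (21.4%, against 2.69% of all genes) and 1 lower (7.14%, near the 6.54%). Of the 3, 2 passed the filter through MSC IV alone. Without either MSC IV array 12 genes could be tested, and 1 was higher. The lower count was 0 without MSC IV replicate 2. Ihh, the hedgehog ligand of the growth plate, was at 7.57 and 7.82 in MSC IV and at 5.37 to 5.67 (median 5.54) elsewhere, and Ptch1, the hedgehog receptor and a target of the pathway, at 11.54 and 11.49 against 8.97 to 10.60 (median 9.70, difference 1.82 ± 0.22). Gas1, a hedgehog co-receptor, was at 8.17 and 7.14 against 9.37 to 10.49 (median 10.24, difference -2.38 ± 0.39) and was not called without MSC IV replicate 2 (-1.86).

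The TGF-beta receptors split. Of 22 genes of this pathway 3 were higher (13.6%, against 2.69% of all genes) and 5 lower (22.7%, against 6.54%). Of the 3, Eng passed the filter through MSC IV alone and could not be tested without an MSC IV array. The higher count was 0 without MSC IV replicate 2 and 1 without MSC IV replicate 1 or MSC V replicate 1, and the lower count was 3 without MSC IV replicate 2. Eng, endoglin (CD105), a co-receptor and a usual surface marker of stromal cells, was at 9.69 and 9.504 in MSC IV and at 5.57 to 5.76 (median 5.65) on the 6 others, with MSC I at 5.71 and 5.85. Its difference was 3.94 ± 0.09, and the levels outside MSC IV were all under the table median. Tgfbr3, betaglycan, was at 7.42 and 6.84 against 9.90 to 10.79 (median 10.65, difference -3.42 ± 0.24). Tgfbr2, the ligand-binding receptor, was at 9.56 and 9.02 against 10.40 to 12.16 (median 10.996, difference -1.92 ± 0.15), and Lrrc32, which holds latent TGF-beta on the cell surface, at 6.21 and 6.16 against 8.64 to 10.45 (median 9.57, difference -3.44 ± 0.34). Tgfbr1 differed by 0.56 and was not called.

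Many genes of the fibroblast matrix were lower in MSC IV. Of 53 tested matrix glycoproteins and proteoglycans, 24 were lower and 1 higher, against 6.54% and 2.69% of all genes, with a median difference of -1.06. The lower count fell without either MSC IV replicate. The median difference was -1.24 without MSC IV replicate 1 and -0.77 without MSC IV replicate 2. With each preparation as 1 value 5 were lower. Nid1, nidogen, which links laminin and collagen IV in basement membranes, was at 6.32 and 5.96 in MSC IV and at 10.41 to 11.73 (median 11.33) on the others (difference -5.12 ± 0.20), and at 12.65 and 12.73 in MSC I. Vcan, the large proteoglycan versican, was at 7.37 and 7.03 against 11.33 to 12.15 (median 11.77, difference -4.56 ± 0.21). The microfibril proteins Mfap5 (5.93 and 5.48 against 8.49 to 10.77, median 10.02, difference -3.98 ± 0.18) and Mfap2 (7.33 and 6.66 against 9.79 to 12.001, median 10.21, difference -3.51 ± 0.40) were both lower against each of MSC II, III and V. Mfap5 was also low in MSC I (5.88 on average). Thbs2, an anti-angiogenic matrix protein, was at 9.89 and 10.16 against 12.28 to 12.81 (median 12.46, difference -2.47 ± 0.13), and the laminin chains Lamb1 (-2.52 ± 0.24) and Lama5 (-2.44 ± 0.14) were lower as well.

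The CCN family of matricellular proteins differed among themselves. Ccn5 (7.38 and 6.62 against 10.02 to 11.78, median 11.45, difference -4.22 ± 0.45) and Ccn3 (6.64 and 5.43 against 8.08 to 11.41, median 10.41, difference -4.01 ± 0.43) were lower. Ccn2, connective tissue growth factor, was lower (difference -1.59 ± 0.42) but lost its call without either MSC II replicate (-1.56 and -1.62), either MSC III replicate (-1.63 and -1.54) or either MSC IV replicate (-1.04 and -2.13). Ccn4 was the higher gene of the matrix list (10.498 and 11.57 against 7.38 to 10.05, median 9.35, difference 1.92 ± 0.38) and was not called without MSC IV replicate 2 (1.39), while Ccn1 (0.11) was not called. Several abundant matrix genes differed little, among them fibronectin Fn1 (-0.17), Sparc (0.12), Bgn (-0.26) and Postn (-0.36), none called.

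Of 21 tested collagen chains 1 was higher, Col11a1 (4.76%, against 2.69% of all genes). Another 8 were lower (38.1%, against 6.54%), 3 without MSC IV replicate 2. Col1a1 (0.21) and Col1a2 (0.36), the chains of collagen I, the main protein of bone matrix, were not called. Col8a1 was at 7.83 and 6.78 against 9.22 to 10.69 (median 10.23, difference -2.82 ± 0.30). The collagen VI chains Col6a1 (-2.11), Col6a2 (-2.23) and Col6a3 (-3.72) were lower, and Col6a1 lost its call without MSC IV replicate 2 (-1.83), Col6a2 without MSC IV replicate 2 (-1.82) and Col6a3 without MSC IV replicate 2 (-3.71). The basement membrane chains Col4a1 and Col4a2 were at 6.23 and 6.505 and at 6.01 and 6.27 in MSC IV, close to MSC II (6.30 and 6.501, and 6.44 and 6.58) and lower than MSC III (8.09 and 8.33, and 7.67 and 7.97) and MSC V (8.46 and 8.35, and 8.43 and 8.22). Among 27 enzymes of collagen and matrix assembly 3 were higher (11.1%, against 2.69% of all genes) and 6 lower (22.2%, against 6.54%). The higher count was 1 without MSC IV replicate 2. Creb3l1, a transcription factor for collagen secretion in bone, was at 11.59 and 12.19 against 9.81 to 11.06 (median 10.70, difference 1.39 ± 0.20). The prolyl hydroxylase P4ha3 was lower (8.77 and 7.75 against 10.80 to 11.62, median 11.35, difference -3.01 ± 0.28), as were the cross-linking enzymes Loxl1 (-1.73 ± 0.24) and Loxl3 (-1.33 ± 0.21).

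Several contractile genes of smooth muscle, which cultured stromal cells also express, were lower. Of 13 tested, 6 were lower (46.2%, against 6.54% of all genes) and 1 higher (7.69%, against 2.69%), with a median of -0.78. Actg2, a smooth muscle actin, was at 8.88 and 9.32 against 12.54 to 13.35 (median 13.15, difference -3.996 ± 0.17), Cnn1, calponin, at 9.91 and 9.47 against 12.10 to 13.25 (median 12.66, difference -2.98 ± 0.29), and Tagln, transgelin, at 9.003 and 9.26 against 11.16 to 11.96 (median 11.58, difference -2.42 ± 0.14). None of these arrays overlapped between MSC IV and the others, and MSC I was at 12.64, 11.44 and 11.96. Tpm2 (-1.74 ± 0.17) and Myl9 (-1.34 ± 0.11) were lower too. Acta2, the actin that marks myofibroblasts, was at 13.07 and 12.95 against 13.49 to 13.67 (median 13.56) and was not called (-0.56). Myocd, the coactivator that drives these genes in muscle, was in contrast higher (1.43 ± 0.35) but was not called without MSC III replicate 2 (1.43) or either MSC IV replicate (1.33 and 1.54).

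**Figure D2:**
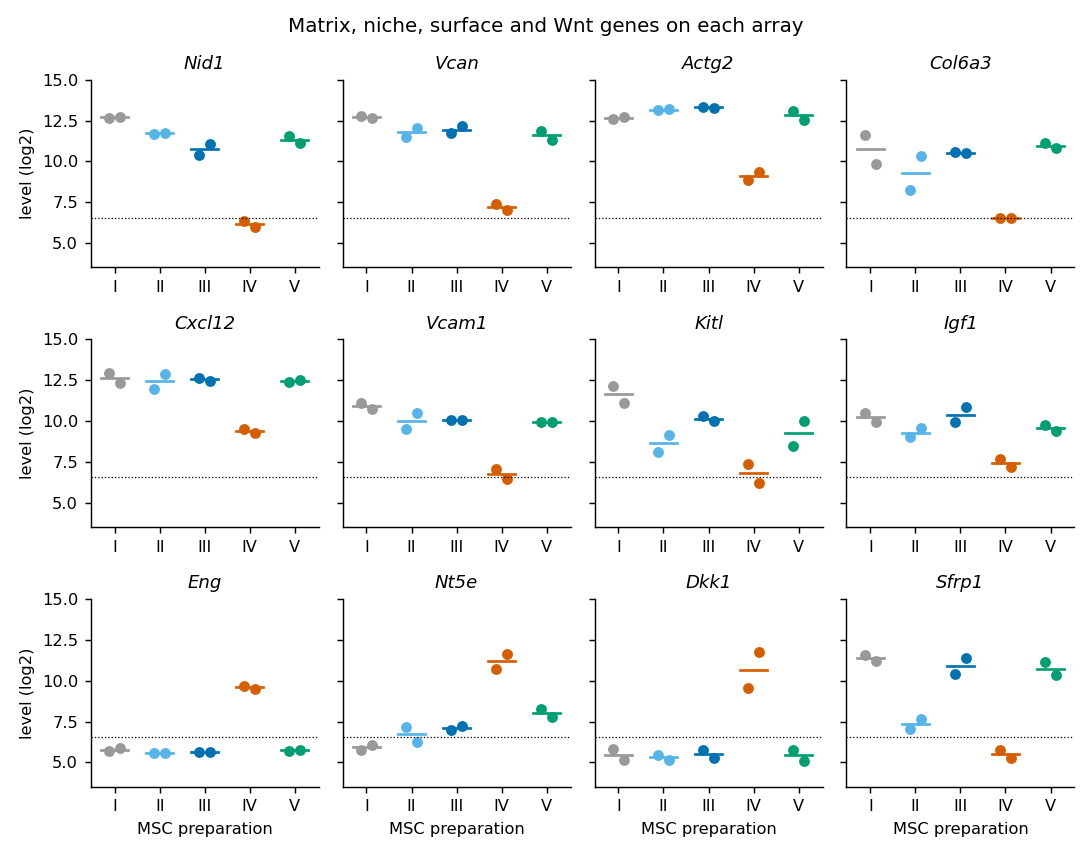
Log2 level of 12 matrix, niche, surface and Wnt genes on each of the 10 arrays, by preparation; points are single arrays, bars the mean of 2, and the dotted line the table median (6.55). MSC IV lies below MSC II, III and V in the first 8 panels and for Sfrp1, and above them for Eng, Nt5e and Dkk1.

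Many factors by which stromal cells hold and feed blood stem cells were lower. Of 19 tested haematopoietic niche factors 9 were lower (47.4%, against 6.54% of all genes) and 1 higher (5.26%, against 2.69%), and the median was -1.71. The lower count was 5 without MSC IV replicate 2 and 2 with each preparation as 1 value. The higher one, Tgfb1 (1.02), was not called without MSC II replicate 1 (0.91), MSC III replicate 2 (0.96), either MSC IV replicate (1.30 and 0.75) or either MSC V replicate (1.03 and 1.02). Cxcl12, the chemokine that keeps stem cells in the marrow, was at 9.51 and 9.25 in MSC IV and at 11.98 to 12.88 (median 12.49) on the others (difference -3.09 ± 0.25), with differences of -3.05, -3.18 and -3.06 from MSC II, III and V. MSC I was at 12.93 and 12.33, one array just above the range of the 6 and the other within it. Vcam1, an adhesion molecule for blood cells, was at 7.03 and 6.46 against 9.48 to 10.46 (median 10.02, difference -3.25 ± 0.26), again by nearly the same amount against each preparation (-3.23, -3.33 and -3.20). Igf1 was at 7.68 and 7.17 against 9.03 to 10.84 (median 9.66, difference -2.33 ± 0.28). Kitl, stem cell factor, was at 7.40 and 6.17 against 8.12 to 10.28 (median 9.55, difference -2.55 ± 0.52) and was not called without MSC IV replicate 2 (-1.94). Ebf1, a transcription factor of the niche cells, was lower (difference -1.74 ± 0.30), while Ebf3 (-2.80 ± 0.21) was as low in MSC III (5.54 and 5.26) as in MSC IV (5.21 and 5.26). Lepr, which marks niche stromal cells in the adult marrow, differed by 0.90 and was not called. Fewer cells of a type and less RNA per cell cannot be told apart in such bulk samples.

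A number of chemokine, cytokine and interferon response genes were lower too. Of 21 tested chemokines and cytokines 10 were lower (47.6%, against 6.54% of all genes), 5 without MSC IV replicate 2. The other 11 were not called. Ccl9 was at 5.66 and 5.55 against 8.93 to 10.31 (median 9.35, difference -3.94 ± 0.35), and Ccl5 at 6.81 and 7.23 against 8.84 to 10.41 (median 9.78, difference -2.65 ± 0.30). Ccl7 was lower (difference -2.86 ± 0.44), with -1.21 against MSC II and -3.78 and -3.59 against MSC III and V, and was not called without MSC IV replicate 2 (-2.77). Of 17 tested interferon response genes 8 were lower (47.1%, against 6.54% of all genes) and 9 not called. Irf1 was at 7.18 and 7.34 against 8.57 to 9.48 (median 9.13, difference -1.85 ± 0.16), the sensor gene Ddx58 at 8.10 and 7.92 against 9.07 to 9.56 (median 9.49, difference -1.41 ± 0.12) and Ifit3 at 6.12 and 6.38 against 7.35 to 9.28 (median 7.69, difference -1.76 ± 0.23). MSC I was well above all 8 arrays for Ddx58 (11.63) and Ifit3 (12.56).

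Surface markers used to define stromal cells differed in both directions. Of 23 tested, Eng, Nt5e and Anpep were higher and Vcam1, Pdgfra and Col3a1 lower (13.0% each way, against 2.69% and 6.54% of all genes). Eng passed the filter through MSC IV alone, so its call was nearly built in. Without either MSC IV array Eng could not be tested, and the higher count fell. The lower count was 1 without replicate 2 of MSC III or of MSC IV, or replicate 1 of MSC V. Nt5e, the ectoenzyme CD73 that makes adenosine, was at 10.75 and 11.66 against 6.26 to 8.27 (median 7.22, difference 3.92 ± 0.31). Anpep, CD13, was at 9.53 and 9.74 against 6.62 to 9.37 (median 8.598), with differences of 1.04, 0.30 and 2.87 from MSC II, III and V. Pdgfra was lower (difference -1.71 ± 0.495) but lost its call without MSC II replicate 2 (-1.504), either MSC III replicate (-1.60 and -1.81), either MSC IV replicate (-1.15 and -2.26) or either MSC V replicate (-1.68 and -1.73), and Col3a1, a matrix gene kept in this list, was lower (difference -1.48 ± 0.37) and lost it without MSC III replicate 2 (-1.39), either MSC IV replicate (-1.58 and -1.38) or MSC V replicate 1 (-1.40). Itgb1 (-0.04), Cd44 (-0.18) and the cytoskeletal gene Vim (-0.13) were not called. Among 15 integrins Itga10, a collagen receptor of bone and cartilage, was higher (9.499 and 10.09 against 6.41 to 7.81, median 6.81, difference 2.79 ± 0.25), and the count of higher integrins was 2 without MSC IV replicate 1. Itgb8 was lower (5.66 and 6.17 against 7.67 to 8.34, median 7.85, difference -2.01 ± 0.21). The proteoglycans Gpc1 (2.16 ± 0.26) and Sdc3 (1.56 ± 0.15) were higher, and both MSC IV arrays lay above all 6 others.

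Of 18 tested PDGF and VEGF pathway genes 2 were higher (11.1%, against 2.69% of all genes) and 6 lower (33.3%, against 6.54%). The lower count was 2 without MSC IV replicate 2. Of 17 IGF pathway genes 1 was higher (5.88%) and 6 lower (35.3%), 0 and 2 without MSC IV replicate 2. Pdgfa was at 12.42 and 12.51 in MSC IV against 9.55 to 10.84 (median 10.39, difference 2.17 ± 0.13). Vegfd was lower (-2.40 ± 0.39) and lost its call without MSC IV replicate 2 (-1.96), and Vegfa (0.46) was not called. The receptors Nrp1 and Nrp2, which bind VEGF and class 3 semaphorins, went opposite ways. Nrp2 was at 11.97 and 11.53 against 8.11 to 10.78 (median 9.74, difference 2.13 ± 0.19), and Nrp1 at 6.33 and 7.36 against 7.53 to 10.42 (median 9.12, difference -2.25 ± 0.57), not called without MSC III replicate 2 (-2.17) or either MSC IV replicate (-1.73 and -2.76). Of 16 FGF pathway genes 2 were higher (12.5%) and 5 lower (31.25%), against 2.69% and 6.54% of all genes. The 2 became 1 without MSC III replicate 2 or MSC IV replicate 2 and 0 without MSC IV replicate 1. The 5 became 3 without either MSC III array, or replicate 1 of MSC IV or of MSC V, and 1 without MSC IV replicate 2. Dusp6, a phosphatase that damps ERK signalling, was at 7.91 and 6.85 against 8.84 to 11.16 (median 10.12, difference -2.69 ± 0.39). Of 36 guidance genes 5 were higher (13.9%) and 11 lower (30.6%), against 2.69% and 6.54% of all genes. The counts were 3 and 6 without MSC IV replicate 2. Sema4d, a semaphorin known to act on osteoblasts, was at 8.57 and 9.08 against 5.17 to 6.99 (median 5.36, difference 3.10 ± 0.23), and the ephrin ligand Efnb2 at 6.95 and 6.996 against 8.77 to 10.37 (median 9.71, difference -2.64 ± 0.31).

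Of 14 tested imprinted genes, which are expressed from 1 parental copy and often promote growth, 7 were lower. These were 50% of the list, against 6.54% of all genes, and the other 7 were not called. The lower count was 4 without MSC IV replicate 1 and 3 without replicate 2. Peg10 was at 9.29 and 8.33 against 11.30 to 12.63 (median 11.73, difference -3.03 ± 0.30), and the thyroid hormone inactivating enzyme Dio3 at 5.63 and 4.27 against 5.84 to 9.07 (median 7.97, difference -2.53 ± 0.37). Mest was at 7.43 and 6.44 against 8.48 to 11.73 (median 10.21, difference -3.26 ± 0.69) and was not called without MSC IV replicate 2 (-2.77). Grb10 (0.77) and Igf2r (0.79) were not called. Of 26 tested Hox genes 1 was higher (3.85%, near the 2.69% of all genes) and 6 were lower (23.1%, against 6.54%). The higher one was Hoxd8 (1.33 ± 0.12), and the count was 0 without MSC IV replicate 1. These 6 did not set MSC IV apart from all others, except Hoxc12 (6.39 and 6.45 against 7.83 to 9.29, median 8.56, difference -2.14 ± 0.27). Hoxa11 was at 5.29 and 5.10 in MSC IV and 5.34 and 5.10 in MSC II, but at 7.44 and 8.19 in MSC III and 9.28 and 9.25 in MSC V.

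Genes of DNA replication and mitosis were lower in MSC IV on average, with a spread between replicates that limits the statement. Of 44 tested replication genes 16 were lower (36.4%, against 6.54% of all genes) and 28 not called. All 44 differences were below 0, with a median of -0.998. The count was 10 without MSC IV replicate 1, 1 without MSC IV replicate 2 and 25 without MSC V replicate 2. Of 64 tested genes of mitosis and the spindle 14 were lower (21.9%, against 6.54% of all genes) and 50 not called. Again all 64 differences were below 0, with a median of -1.10. Here the count was 23 without MSC II replicate 1, 4 without MSC II replicate 2 or MSC III replicate 2, 6 without MSC IV replicate 1, 0 without MSC IV replicate 2, 7 without MSC V replicate 1 and 24 without MSC V replicate 2. It was also 6 with 8 arrays in the fit, 9 with the filter at the 75th percentile, 3 with no low-value filter, 4 with a replicate block and 28 with MSC I in the reference. With each preparation as 1 value 0 genes of either list were called by limma, and 20 replication and 12 mitosis genes were lower at an unadjusted p under 0.05. With centred arrays 15 and 13 genes of these lists were called lower, and 41 and 63 of the differences were below 0.

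The mean level of the mitosis list showed where the arrays overlapped. It was 8.68 and 7.89 in MSC IV, but 8.10 and 9.06 in MSC II, 9.24 and 10.14 in MSC III, and 10.36 and 9.25 in MSC V. MSC I was at 10.12 and 10.17. MSC II replicate 1 was thus between the MSC IV arrays. The list's median difference was -0.22 against MSC II, -1.45 against MSC III and -1.51 against MSC V. The replication list was at 8.80 and 8.44 in MSC IV and at 9.04 to 10.07 on the 6 others, with no overlap, and its median differences were -0.59, -1.17 and -1.18.

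**Figure D3:**
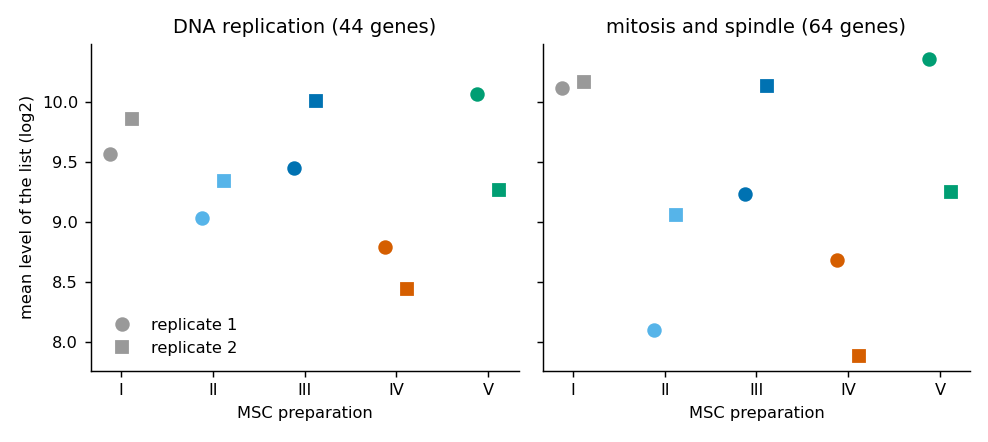
Mean log2 level of the 44 replication genes and the 64 mitosis genes on each array, by preparation; circles are replicate 1 and squares replicate 2. For replication both MSC IV arrays lie below all others; for mitosis MSC II replicate 1 lies between them.

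Of the replication genes, Mcm6, a subunit of the replicative helicase, kept its call with each array left out. It was at 8.69 and 8.13 against 9.41 to 10.85 (median 10.17, difference -1.71 ± 0.24). Mcm3 (-1.61 ± 0.30) was not called without MSC IV replicate 2 (-1.35), and Mcm5 (-1.59 ± 0.36) not without either MSC IV replicate (-1.68 and -1.503). Tk1, thymidine kinase, was at 7.500 and 6.997 against 8.40 to 10.26 (median 9.06, difference -1.88 ± 0.43) and was not called without either MSC IV replicate (-2.13 and -1.63). Cdk1, the kinase that starts mitosis, was at 10.45 and 10.18 against 11.07 to 12.10 (median 11.40, difference -1.21 ± 0.26) and was not called without either MSC IV replicate (-1.34 and -1.07). Spc25, a kinetochore subunit, was lower (difference -1.33 ± 0.29) and not called without MSC IV replicate 2 (-1.04). The proliferation marker Mki67 (-1.30) and the topoisomerase Top2a (-1.42) were not called. The inhibitor gene Cdkn2c was also lower (-2.16 ± 0.34), though not called without MSC IV replicate 2 (-1.89), and Cdkn2a (0.01) and Cdkn1b (-0.10) were not called.

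Windows of a few of these genes are printed because these lists are known to share letters bound by cell cycle factors. Capitals mark TTTGGCGC (an E2F site) in the MCM genes, with GCGGGAAA, a related E2F form, also marked in Mcm3, and TTTGAA (the cell cycle homology region) in Cdk1 and Spc25, each on either strand.
Mcm3 (chr1:20820263-20820562, minus strand): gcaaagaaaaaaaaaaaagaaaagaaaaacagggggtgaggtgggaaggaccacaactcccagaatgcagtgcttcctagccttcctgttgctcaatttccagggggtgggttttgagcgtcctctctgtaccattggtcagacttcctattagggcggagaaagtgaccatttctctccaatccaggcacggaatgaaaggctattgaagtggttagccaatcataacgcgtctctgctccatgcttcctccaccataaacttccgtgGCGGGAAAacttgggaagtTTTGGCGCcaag
Mcm5 (chr8:75109259-75109558, plus strand): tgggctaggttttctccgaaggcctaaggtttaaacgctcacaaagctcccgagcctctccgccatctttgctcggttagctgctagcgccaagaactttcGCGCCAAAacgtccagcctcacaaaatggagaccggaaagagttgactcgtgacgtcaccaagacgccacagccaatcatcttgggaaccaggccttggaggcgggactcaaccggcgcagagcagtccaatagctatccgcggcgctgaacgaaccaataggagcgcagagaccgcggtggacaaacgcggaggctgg
Mcm6 (chr1:128359656-128359955, minus strand): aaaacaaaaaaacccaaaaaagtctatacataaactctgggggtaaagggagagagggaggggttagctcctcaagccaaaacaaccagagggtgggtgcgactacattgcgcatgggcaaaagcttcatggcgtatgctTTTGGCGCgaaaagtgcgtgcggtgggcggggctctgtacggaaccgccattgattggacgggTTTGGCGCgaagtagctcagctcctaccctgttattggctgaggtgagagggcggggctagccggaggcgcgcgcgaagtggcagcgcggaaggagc
Cdk1 (chr10:69352863-69353162, minus strand): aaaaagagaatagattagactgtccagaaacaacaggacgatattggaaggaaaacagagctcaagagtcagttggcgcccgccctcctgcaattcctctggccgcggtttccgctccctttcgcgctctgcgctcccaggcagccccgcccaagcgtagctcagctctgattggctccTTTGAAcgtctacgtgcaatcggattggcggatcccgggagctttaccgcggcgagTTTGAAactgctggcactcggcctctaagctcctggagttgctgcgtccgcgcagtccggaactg
Spc25 (chr2:69206164-69206463, minus strand): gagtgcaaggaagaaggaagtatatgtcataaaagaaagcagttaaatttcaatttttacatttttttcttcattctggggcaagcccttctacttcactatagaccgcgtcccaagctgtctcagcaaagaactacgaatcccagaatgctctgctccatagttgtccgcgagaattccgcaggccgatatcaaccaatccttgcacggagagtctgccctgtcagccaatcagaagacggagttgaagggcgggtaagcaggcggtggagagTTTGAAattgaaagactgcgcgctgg
Mcm6 holds 2 E2F copies, beginning at -110 and -47, Mcm5 1 at -149, and Mcm3 1 at 39, with GCGGGAAA at 20. Cdk1 holds TTTGAA at -71 and -15, and Spc25 at 25. The window of Mybl2 (-1.57, not called without MSC II replicate 2 (-1.53), MSC III replicate 2 (-1.40) or either MSC IV replicate (-1.69 and -1.45)), a transcription factor of the same list, holds no TTTGAA and is not printed. TTTGGCGC was found in 31.2% of the 16 windows of the called replication genes, in 4% of the 25 windows of those not called and in 1.01% of all windows. GCGGGAAA was found in 12.5% of the called and 20% of the other replication windows and in 2.08% of all, so the order of called and other genes differed between the E2F forms. TTTGAA was found in 72.7% of the 11 windows of called mitosis genes and in 63.8% of the 47 windows of those not called, against 11.8% of all windows.

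Some lists had few or no called genes. Of 16 housekeeping genes 0 were called by limma in either direction, also with the trend and robust settings, and the median was 0.01 (-0.005 without MSC IV replicate 2). At an unadjusted p under 0.05, 1 was higher and 0 lower. Of 33 genes of oxidative metabolism 1 was called higher (3.03%, near the 2.69% of all genes). It was Cox6a2, higher by 1.996 ± 0.47 but not called without MSC IV replicate 2 (1.43). Of 32 genes of the endoplasmic reticulum stress and amino acid response 0 were called by limma, also with the trend and robust settings. Yet the median was 0.32, with 22 differences above 0 and 10 below. At an unadjusted limma p under 0.05, 11 were higher and 1 lower. The list's mean level was 11.35 to 11.50 on the MSC IV arrays and 10.42 to 11.17 on the 6 others, with no overlap. With each preparation as 1 value 1 was called. Atf3 differed by 2.23, Trib3 by 1.89 and Chac1 by 1.84, and none of them was called. Without MSC II replicate 1 the higher count of this list was 7, and without MSC V replicate 2 it was 2. Of 12 tested adipocyte genes 2 were lower (16.7%, against 6.54% of all genes), 0 without MSC IV replicate 2. Pparg (-0.75) was not called, and Adipoq, which was at 10.45 in MSC I, lay under the table median in MSC IV (4.80 and 5.15).

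**Figure D4:**
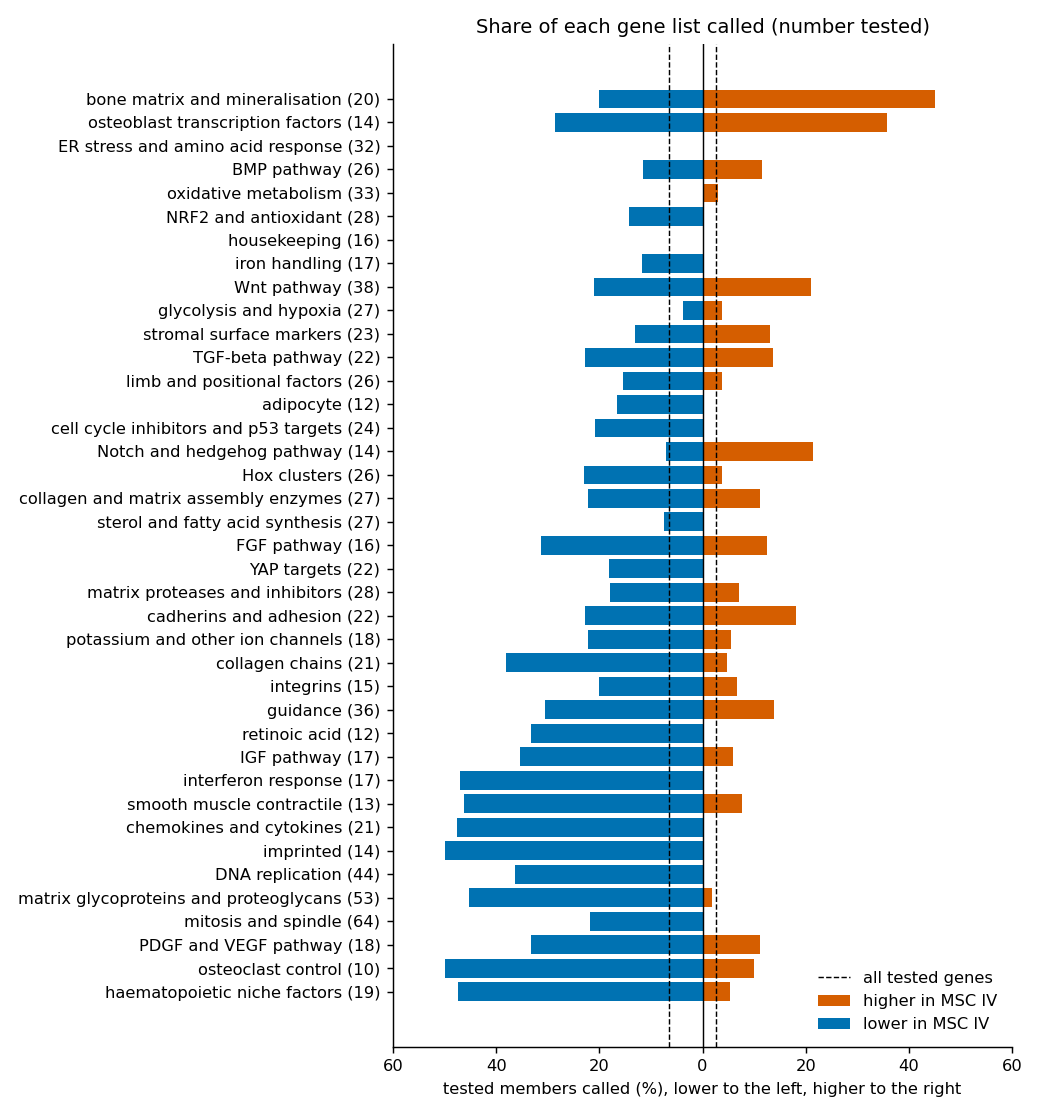
Percent of the tested members of each list that were called higher (right) or lower (left) in MSC IV, for lists with at least 10 tested members, ordered by median difference; dashed lines mark all tested genes (2.69% and 6.54%). Bone mineralisation has the longest bar to the right, and niche factors lie at the other end of the order.

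Called microRNA genes are named although the naming rule did not cover them. The table named 297 microRNA genes, 71 of which passed the filter. Of these 5 were called higher and 0 lower, beside 2.69% and 6.54% of all tested genes. The labels do not say whether precursor or mature RNA was bound by these probe sets. Mir181b-1 was at 11.35 and 10.83 against 7.64 to 9.93 (median 8.93, difference 2.36 ± 0.27), and Mir181a-1, its neighbour on chromosome 1, at 8.08 and 7.62 against 5.30 to 6.81 (median 5.92, difference 1.91 ± 0.26). Mir27a was at 7.93 and 8.04 against 6.56 to 7.23 (median 6.81, difference 1.17 ± 0.16). Mir15a (1.16 ± 0.22) was not called without either MSC IV replicate (1.01 and 1.31), and Mir31 (1.01 ± 0.10) was not called without MSC II replicate 2 (0.998), MSC III replicate 1 (0.98) or MSC IV replicate 1 (0.92). The mature forms are shown (RefSeq, GRCm38.p6) with the seed, bases 2 to 8, in capitals, because the neighbours share it.
mmu-miR-181a-5p (chr1:137966468-137966490, plus strand): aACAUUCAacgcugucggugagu
mmu-miR-181b-5p (chr1:137966650-137966673, plus strand): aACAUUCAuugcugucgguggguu
mmu-miR-27a-3p (chr8:84208727-84208747, plus strand): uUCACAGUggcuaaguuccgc
mmu-miR-181a-5p and mmu-miR-181b-5p have the seed ACAUUCA in common and differ in the bases that follow it, while mmu-miR-27a-3p has the seed UCACAGU.

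By chromosome, the tested genes of the X had the lowest median difference (-0.25), and 45 of 344 were lower (13.1%) against 3 higher (0.872%), beside 6.54% and 2.69% of all genes. The median was -0.11 against MSC II, -0.33 against MSC III and -0.28 against MSC V, and -0.12 with centred arrays. Xist, the RNA that coats the inactive X in female cells, was singled out after its values were seen. It was at 9.62 and 9.71 in MSC IV, 10.47 and 10.24 in MSC V, 12.45 and 12.13 in MSC II and 12.47 and 12.58 in MSC III, and at 12.17 and 12.52 in MSC I. It was thus lower in MSC IV than on every other array, with MSC V next. Chromosome 19 had 26 of 388 genes higher (6.7%, against 2.69% of all), and its median was 0.20, or 0.23, 0.15 and 0.23 in the single comparisons. Chromosome 12 had a median of 0.21, but -0.01 against MSC III, and chromosome 9 had 58 of 609 genes lower (9.52%) and a median of -0.19. The part of chromosome copy number in these shifts was not tested.

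**Figure D5:**
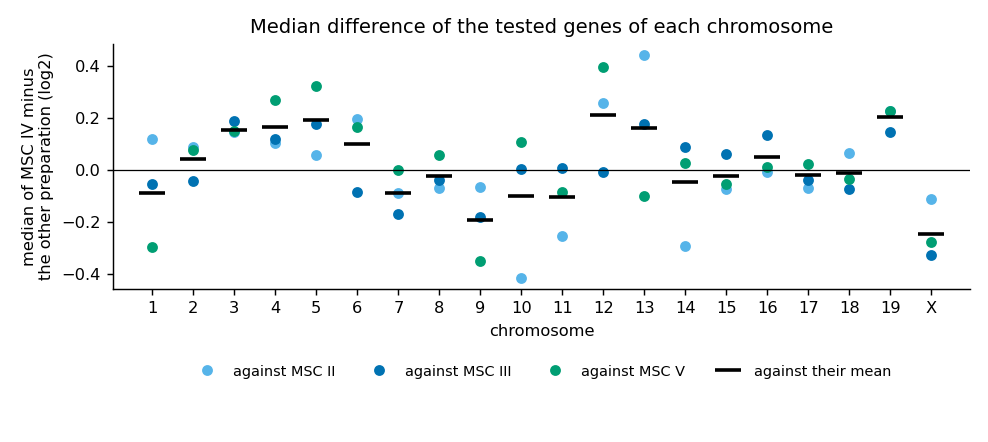
Median log2 difference of the tested genes of each chromosome, MSC IV minus MSC II, III or V (points) and minus their mean (black bars). The X and chromosome 9 lie below 0 and chromosomes 3, 4, 5 and 19 above 0 in all 3 comparisons, while the other chromosomes have points on both sides of 0.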

How the data were processed

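Gene expression was measured on 10 arrays of 5 preparations, 2 each. The authors deposited 1 table of log2 values for 35399 probe sets, made with RMA and Partek per the submitters' processing notes, which name no version. RMA background-corrects, quantile-normalises and summarises probes, so levels of different probe sets are not comparable. Of the probe sets 21789 had 1 symbol in the platform annotation, 1621 several and 11989 none, and the last 2 kinds were not used. Each of 19938 genes was represented by its probe set with the highest mean over 10 arrays. Genes needed at least 2 of the 8 arrays of MSC II to V above the table median of 6.55 log2 (10725 genes). limma 3.58.1 in R 4.3.3 fitted 1 mean per preparation over all 10 arrays (5 residual degrees of freedom), the contrast was MSC IV minus the mean of MSC II, III and V, and p-values were Benjamini-Hochberg adjusted over all tested genes. The script was tested on simulated data. The members and gene lists were chosen with earlier results of these data known. Genes named in the text are list members and the 25 called genes with the largest difference in each direction whose 2 MSC IV arrays lay outside the range of the 6 others and whose higher side was above the table median, without predicted, clone or Riken names. The number of arrays limits the precision. Alternatives covered the filter, scaling, probe set choice, variance model, reference group and single arrays. Replicate numbers were not taken to pair the arrays, since 1 of 10 pairs of preparations had deviations that correlated above 0.1. Those correlations ran from -0.562 to 0.210, and whether arrays of unlike numbers were handled together was not tested. Promoter windows and miRNAs were taken from RefSeq tables of GRCm38.p6.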

Additional observations from a re-analysis of the deposited data

How the results depend on the processing

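The counts of called genes depended on the spread used and on 1 array. Against 288 higher and 701 lower genes, the counts were 40 and 42 with each preparation as 1 value, 143 and 389 with the filter at the 75th percentile (9.22 log2), 1111 and 1409 with no minimum difference, and 94 and 180 with a minimum of 2 log2. Leaving out 1 array at a time gave 138 to 320 higher and 343 to 761 lower, with the lowest counts without MSC IV replicate 2. With the filter at the 75th percentile 547 genes differed from MSC II (992 in the main comparison), 474 from MSC III (875) and 641 from MSC V (1188). Leaving out 1 array gave 558 to 1071 against MSC II, 402 to 901 against MSC III and 626 to 1209 against MSC V, again lowest without MSC IV replicate 2. Without MSC II replicate 2 the count against MSC II was 588, without MSC III replicate 2 that against MSC III was 413, and without MSC V replicate 1 that against MSC V was 722. With a replicate block the counts were 268 and 609, and 827, 659 and 979 in the single comparisons. The numbers were not taken to pair the arrays, and correlations of deviations ran from -0.562 to 0.210. None of the called named and listed genes changed sign in the alternatives run, but some list medians did, among them cartilage (-0.29 to 0.35 without MSC II replicate 2), Wnt (-0.17 to 0.08 with the filter on the mean of 8 arrays), BMP (0.13 to -0.17 without MSC IV replicate 1) and IGF (-0.76 to 0.04 with the filter at the 75th percentile). Of the counts of called members in 45 lists, 69 of 71 moved by over 1.5 times with each preparation as 1 value (68 fell), 29 of 70 with the filter at the 75th percentile (29 fell), 16 of 73 with centred arrays (8 fell), 13 of 74 with MSC I in the reference (3 fell), 9 of 70 with no low-value filter (7 fell) and 7 of 70 with the replicate block (7 fell). Of 303 named and listed genes that were called, 303 kept the call with the trend and robust settings, 287 with 8 arrays in the fit, 273 with centred arrays, 270 with MSC I in the reference, 269 with the replicate block and 40 with each preparation as 1 value. Signals under the table median give only weak evidence on size.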

Other observations

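Genes with large differences outside the lists, named by the size of the difference, had varied roles. Slc38a4, an amino acid transporter, was at 10.76 and 10.78 in MSC IV and at 5.29 to 7.42 (median 5.79) on the 6 others (difference 4.64 ± 0.19), and at 12.01 and 11.92 in MSC I. Rerg, a small GTPase, was also high in MSC I (11.58 and 10.66), with 9.75 and 11.18 in MSC IV against 6.02 to 7.09 (median 6.46, difference 3.99 ± 0.41). Car3, carbonic anhydrase 3, was at 9.25 and 11.86 against 4.78 to 5.51 (median 5.16, difference 5.41 ± 0.62), Galnt3, a glycosyltransferase that acts on Fgf23, at 8.89 and 9.86 against 4.95 to 5.68 (median 5.51, difference 3.94 ± 0.26), the oxidase subunit Ncf1 at 9.24 and 10.32 against 4.85 to 5.36 (median 5.27, difference 4.58 ± 0.28) and the protease Adamts18 at 8.26 and 9.999 against 5.02 to 5.58 (median 5.36, difference 3.82 ± 0.41). Among the lower genes Glipr1 was at 7.22 and 6.83 against 11.51 to 12.62 (median 12.10, difference -5.09 ± 0.17), the LIM protein Fhl1 at 6.54 and 6.01 against 10.42 to 11.43 (median 10.80, difference -4.55 ± 0.43) and Crabp1, a retinoic acid binding protein, at 6.80 and 6.55 against 7.98 to 12.30 (median 10.88, difference -3.85 ± 0.41).

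Some called genes did not set MSC IV apart from every other preparation; these were picked after their values were seen. The potassium channel Kcnma1 had a mean difference of -4.77 ± 0.44, but MSC V (5.61 and 5.52) lay at the level of MSC IV (7.24 and 5.47), and the difference came from MSC II (13.79 and 14.22) and MSC III (13.54 and 14.12). Another Kcnma1 probe set above the filter had a difference of 2.56, so the direction for this gene turns on the probe set. Cd59a, which protects cells from complement, was at 10.83 and 11.05 in MSC IV and 11.002 and 10.88 in MSC II, but at 6.81 and 6.98 in MSC III and 6.87 and 6.41 in MSC V. The adhesion gene Cadm1 was at 8.92 and 9.86 in MSC IV and 9.11 and 9.34 in MSC V, against 6.13 and 5.87 in MSC II and 6.39 and 6.05 in MSC III.

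MSC I, which the contrast did not use, was not placed on one side. For the 288 higher genes its mean lay above the 6 arrays of MSC II, III and V for 56, within their range for 148 and below it for 84, and it was nearer to MSC IV than to the others for 45. For the 701 lower genes it lay above them for 213, within for 332 and below for 156, and nearer to MSC IV for 166.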
